A study of Mus musculus with 4 samples.

Results

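The subject is a 2 Mb interval of distal mouse chromosome 4, from 145000001 to 147000000 in the build mm9, in which 2 deposited lists of chromatin immunoprecipitation (ChIP-seq) peaks were described. A peak is a stretch of DNA recovered often enough in the immunoprecipitate for the authors' peak caller to report it. A peak belonged to the interval if its start lay inside. This gave 957 members of 809030 peaks in all: 217 of 109740 in the list from proliferating cells and 740 of 699290 in the list from growth-arrested cells. The interval was chosen by its number of peaks in these same lists, so its counts, and the covered length and spacing that follow from them, are given as a description with no test.

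Both libraries came from C57BL/6 mouse embryonic fibroblasts (E13.5 MEFs, primary cells from mid-gestation embryos) at passage 4, cross-linked with EGS and formaldehyde and precipitated with antibodies to pRb, the retinoblastoma protein. The proliferating cells were cultured asynchronously with 10% serum, and the arrested cells were kept for 72 hours with 0.1% serum. Both carry the label KO without the name of the gene that was removed, and no label says whether the cells still made pRb, so the peaks are described as reported sites and not as sites bound by pRb. Each growth state had 1 immunoprecipitated library, the 2 input libraries were not analysed here, and no difference between the states has a replicate check.

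Distal chromosome 4 of the mouse is known for a cluster of genes for KRAB zinc-finger proteins. These DNA-binding proteins, many of which recognise retroelement sequences, recruit the co-repressor TRIM28 and histone methyltransferases that silence chromatin. The genes have multiplied by local duplication, so that neighbouring copies and the sequence between them resemble each other, and short reads from such sequence are hard to place. pRb is known for holding back E2F transcription factors at cell cycle genes, and the series title concerns the silencing of endogenous retroelements. In the gene order of RefSeq on GRCm38.p6, a run of 82 genes on chromosome 4 lies between Tnfrsf8, which encodes the receptor CD30, and Miip. It holds 19 protein-coding genes, 16 of them named as zinc-finger proteins (among them Zfp600, Zfp534 and Zfp933), and 56 pseudogenes. Its other protein-coding genes are Rex2, Gm13212 and Gm42346. They are set apart by name only, and whether they also encode zinc-finger proteins was not checked. That build differs from the build of the peaks and no position was carried over, so the peaks are named by position only, and whether any lies in a zinc-finger gene was not tested.

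Peaks were crowded in the interval in both growth states, and more so in proliferating cells. The 217 proliferating peaks amounted to 108 per Mb, against 40.0 per Mb in the rest of chromosome 4, a ratio of 2.71. The 740 arrested peaks amounted to 370 per Mb against 262 per Mb, a ratio of 1.41. The arrested excess was seen in the lowest quartile of scores and in none of the other 3, and the ratio was 1.01 once peaks within 1000 bp of each other were joined. No interval is given for these ratios, since the peak number chose the interval. The interval made up 1.31% of the chromosome's spanned length, 3.48% of its proliferating peaks and 1.84% of its arrested peaks. Arrested peaks outnumbered proliferating ones 3.41 to 1 inside it and 6.55 to 1 in the rest of chromosome 4.

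By number of peaks the interval lay above every other 2 Mb window. On chromosome 4 the other 75 windows held between 20 and 119 proliferating peaks, with a median of 80, and between 254 and 628 arrested peaks, with a median of 534. Among the 1200 windows of the 19 autosomes it ranked first in both lists. The next window held 130 proliferating peaks, a number shared by a window on chromosome 13 (113000001 to 115000000) and another on chromosome 17 (29000001 to 31000000). In arrested cells the next was on chromosome 5 (51000001 to 53000000), with 671.

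**Figure D1:**
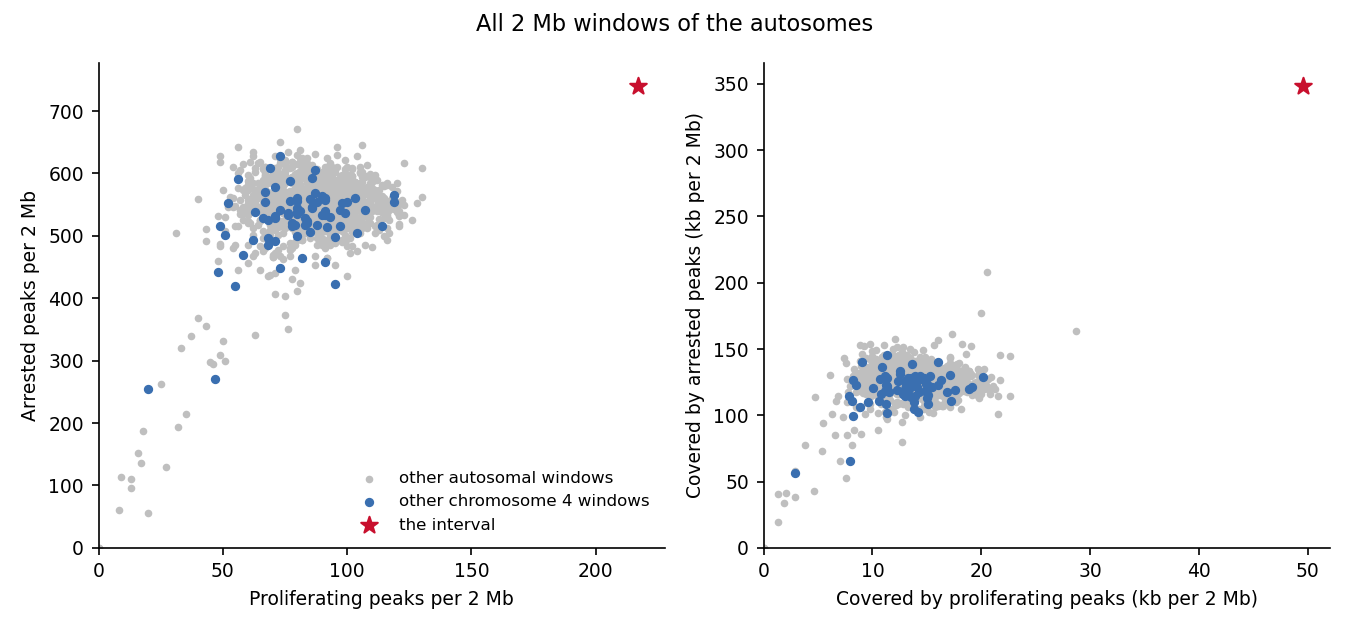
Each point is a 2 Mb window of the autosomes, placed by its proliferating value (x axis) and arrested value (y axis), as numbers of peaks on the left and covered kb on the right. The interval (star, 217 and 740 peaks, 49.5 and 348 kb) lies beyond the other chromosome 4 windows and all other autosomal windows on every axis.

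Covered length set the interval further apart than peak number did. Proliferating peaks covered 49.5 kb, or 2.48% of it, against 0.651% of the rest of chromosome 4, a ratio of 3.80. Arrested peaks covered 348 kb, or 17.4%, against 5.98%, a ratio of 2.91. The other chromosome 4 windows had between 2.93 and 20.1 kb in proliferating and a median of 122 kb in arrested cells, with none as high. Over all autosomes the largest covered length outside the interval was 28.7 kb in proliferating cells, in the chromosome 17 window, and 208 kb in arrested cells, on chromosome 5 (95000001 to 97000000).

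Peaks inside the interval were wider than elsewhere on the chromosome, most of all in arrested cells. The median arrested width was 410 bp (95% interval of the median 396 to 423; quartiles 294 and 574), against 166 bp in the rest of chromosome 4 (quartiles 151 and 292), a ratio of 2.47. Such intervals, here and for the shares given later, cover counting error only and treat neighbouring peaks as independent. In the other 75 windows of the chromosome this median lay between 162 and 227 bp. The median proliferating width was 200 bp (186 to 220; quartiles 158 and 264), against 154 bp (quartiles 134 and 186), a ratio of 1.30, and at most 176 bp in the other windows. On the autosomes 1 window had a larger median in arrested cells and 2 had in proliferating cells, each with at most 56 peaks of that list. The window from 85000001 to 87000000 on chromosome 1 was the widest in both, with medians of 720 and 330 bp.

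The shift in arrested cells ran through the whole distribution. At least 300 bp were measured in 550 of the 740 peaks (74.3%, interval 71.1 to 77.3), against 23.9% in the rest of chromosome 4. At least 500 bp were reached by 256 (34.6%, 31.3 to 38.1), against 2.88%. The narrowest width in the arrested list, 144 bp, was held by 17 members (2.30%) and by 12.2% of the peaks elsewhere on the chromosome. In proliferating cells 45 members (20.7%, 15.9 to 26.6) measured at least 300 bp, against 47 of 6025 (0.780%) in the rest. The 1.31% of the chromosome's length in the interval thus held nearly as many such proliferating peaks as all the rest.

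**Figure D2:**
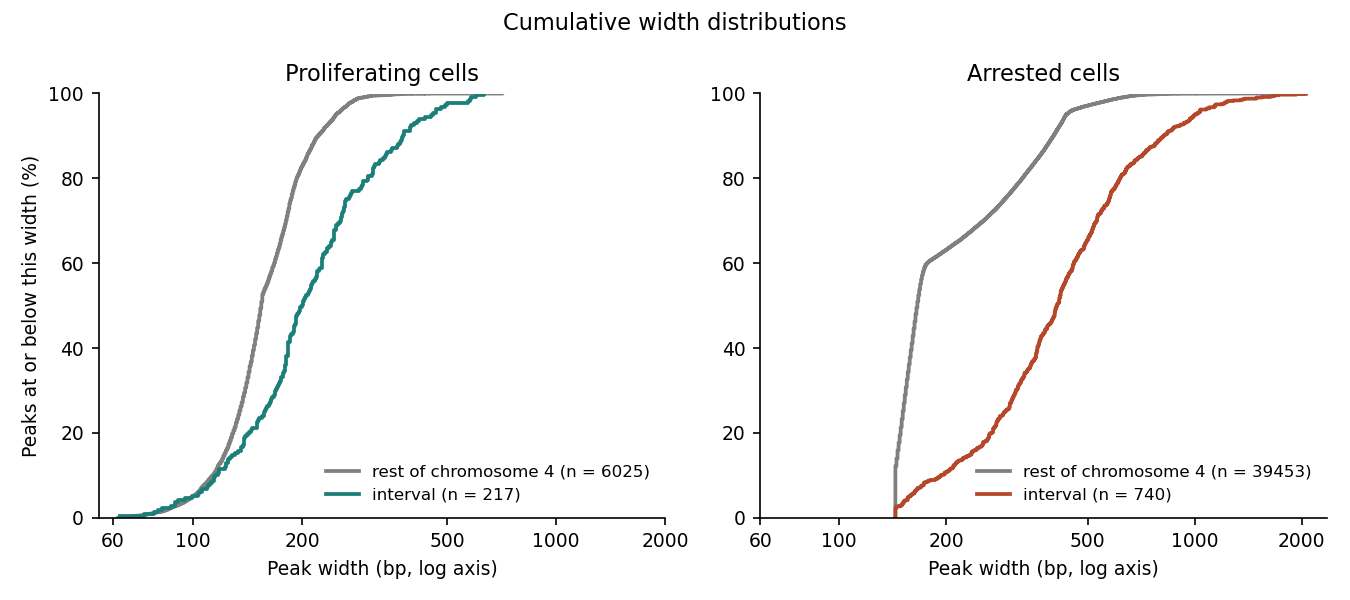
Cumulative percentage of peaks (y axis) at or below each width (x axis, log scale) for the interval (coloured) and the rest of chromosome 4 (grey) in each list. The arrested curve is moved to the right over its whole range, with medians of 410 and 166 bp. The proliferating curves have medians of 200 and 154 bp and are already apart at 150 bp, with 21.2% and 43.5% of peaks below that width.

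Very wide arrested peaks were more numerous here than in any other 2 Mb window of the autosomes. Of the 740 members, 38 measured at least 1000 bp (5.14%), against 0.0521% of the whole arrested list. They were 38 of the 53 such peaks on chromosome 4 (71.7%) and 38 of the 364 in the list (10.4%). No interval is given for these shares, since the peak number chose the interval. The 38 lay in 18 of the 20 stretches of 100 kb. The other windows held at most 17. By share of a window's own arrested peaks the interval ranked 3 of 1198, below a window on chromosome 1 (85000001 to 87000000, 17 of 56 peaks, 30.4%) and a window on chromosome 8 (19000001 to 21000000, 16 of 193, 8.29%). The 38 made up 48.2 kb, or 13.8% of the length that arrested peaks covered, with a median width of 1170 bp. In proliferating cells 0 of 217 members were that wide, so that a share of up to 1.38% remains possible. The whole proliferating list held 15 (0.0137%).

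Each peak carries a score deposited by the authors, on a scale that no label states. Scores were compared only within a list, and both lists begin at 20. In arrested cells the interval's peaks scored low, with a median of 40.0 (interval 38.2 to 42.5; quartiles 27.7 and 67.6), against 97.5 in the rest of chromosome 4 (quartiles 71.2 and 151). The other 75 windows of the chromosome had medians from 80.4 to 106, so the interval was the lowest, and it ranked 5 from the lowest among the 1198 autosomal windows with peaks. In proliferating cells the medians were 24.4 (23.7 to 26.4) inside and 24.6 outside, a difference smaller than the interval of the median, and the interval ranked 29 from the lowest of 76 windows.

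In arrested cells the crowding was carried by low-scoring peaks, and high-scoring peaks were sparser than elsewhere. Scores below 71.0, the first quartile of the whole arrested list, were found for 574 of the 740 members (77.6%), a density of 287 per Mb against 64.6 per Mb in the rest of chromosome 4 and a ratio of 4.44. In the next quartile of scores the ratio was 0.713 (77 peaks), in the third it was 0.423 (66 peaks), and at 153 and above it was 0.176 (23 peaks). Only the lowest quartile was thus denser in the interval. In the upper 50% of the arrested list, with 89 members, the density ratio was 0.311 and the covered length 2.10% against 2.76% outside, so that both directions turned. In proliferating cells each quartile of scores was denser inside, with ratios from 2.34 for the highest scores to 3.05 for the first and the third.

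**Figure D3:**
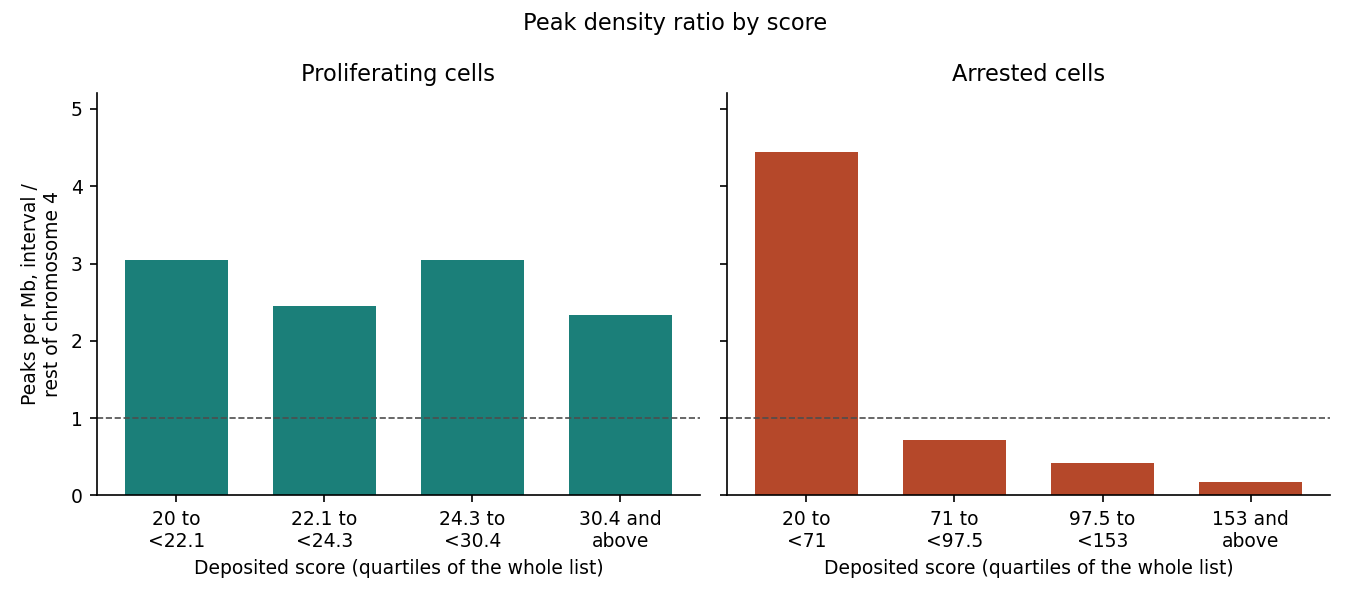
Peaks per Mb in the interval divided by peaks per Mb in the rest of chromosome 4 (y axis) for each quartile of the deposited score in the whole list (x axis); the dashed line marks equal density. The proliferating ratios stay between 2.34 and 3.05, while the arrested ratio falls from 4.44 in the lowest quartile to 0.176 in the highest.

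Lower arrested scores were seen at every width. Among peaks of 150 to below 200 bp the median score was 64.8 inside (58 peaks) and 115 outside. Among those of 300 to below 500 bp it was 31.9 (294 peaks) and 54.1, and from 500 to below 1000 bp it was 40.9 (218 peaks) and 76.3. In the rest of chromosome 4, wide arrested peaks tended to score lower than narrow ones (Spearman rho -0.43 across 39453 peaks). Inside the interval rho was -0.07 across 740 peaks, but width and score were not unrelated. The median score there fell from 96.1 below 150 bp to 31.9 at 300 to below 500 bp. It was 40.9 from 500 to below 1000 bp and 54.9 at 1000 bp and above. Proliferating members of 200 to below 300 bp had a median of 26.2 against 26.4 outside, and those of 150 to below 200 bp 23.4 against 24.5. The 40 of 300 to below 500 bp had 24.6 against 35.6 for 46 peaks outside.

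Sites were reported in both growth states more often here than elsewhere. Of the 217 proliferating members, 85 shared at least 1 bp with an arrested peak (39.2%, interval 32.9 to 45.8), against 10.6% in the rest of chromosome 4 and 11.6% of the whole list. Of the 740 arrested members, 87 shared at least 1 bp with a proliferating peak (11.8%, 9.63 to 14.3), against 1.62% in the rest and 1.82% of the whole list. Both shares were the highest among the autosomal windows, where the others reached 30% (in a window of 20 proliferating peaks) and 10.7%.

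Wider and denser peaks meet more often by themselves, so the covered length stands beside these shares. The centre of a proliferating peak lay inside an arrested peak in 63 of 217 members (29.0%), where arrested peaks covered 17.4% of the interval, or 19.6% of it without the peak-free stretches described next. In the rest of chromosome 4 the centre lay inside an arrested peak for 6.47% of peaks, where they covered 5.98%. The higher sharing was seen in each width class of proliferating peaks below 500 bp. Below 150 bp, 17 of 46 members were shared (37.0%), against 9.89% outside, and from 300 to below 500 bp, 19 of 40 (47.5%), against 6.52% of 46 peaks outside. In the upper 50% of both lists, proliferating peaks were shared in 4.50% of 111 members (1.94 to 10.1) and 4.85% outside. That share was thus no higher inside, where arrested peaks of the upper 50% covered less, 2.10% against 2.76%. Arrested peaks of the upper 50% were shared in 5.62% of 89 members (2.42 to 12.5) against 0.700% outside. Proliferating peaks of the upper 50% covered 1.33% of the interval and 0.338% of the rest. The arrested peaks of the upper 50% were also wider inside, with medians of 317 and 158 bp. Centres were not compared within the upper 50%. With all peaks, an arrested centre lay inside a proliferating peak for 4.32% of members, where proliferating peaks covered 2.48%. Outside, it did for 0.664%, where they covered 0.651%.

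The 85 proliferating and 87 arrested peaks formed 91 overlapping pairs. The shared stretch had a median of 150 bp (quartiles 89 and 211), the centres of a pair lay a median of 174 bp apart, and 37 proliferating peaks were contained whole in their arrested partner. Proliferating members that were shared scored much as the others did, with medians of 24.3 and 24.8, and so did arrested members, with 41.4 and 40.0. Shared arrested members had a median width of 467 bp and the others 404 bp. From a proliferating member to the nearest arrested peak the median distance was 205 bp, against 1011 bp in the rest of chromosome 4.

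**Figure D4:**
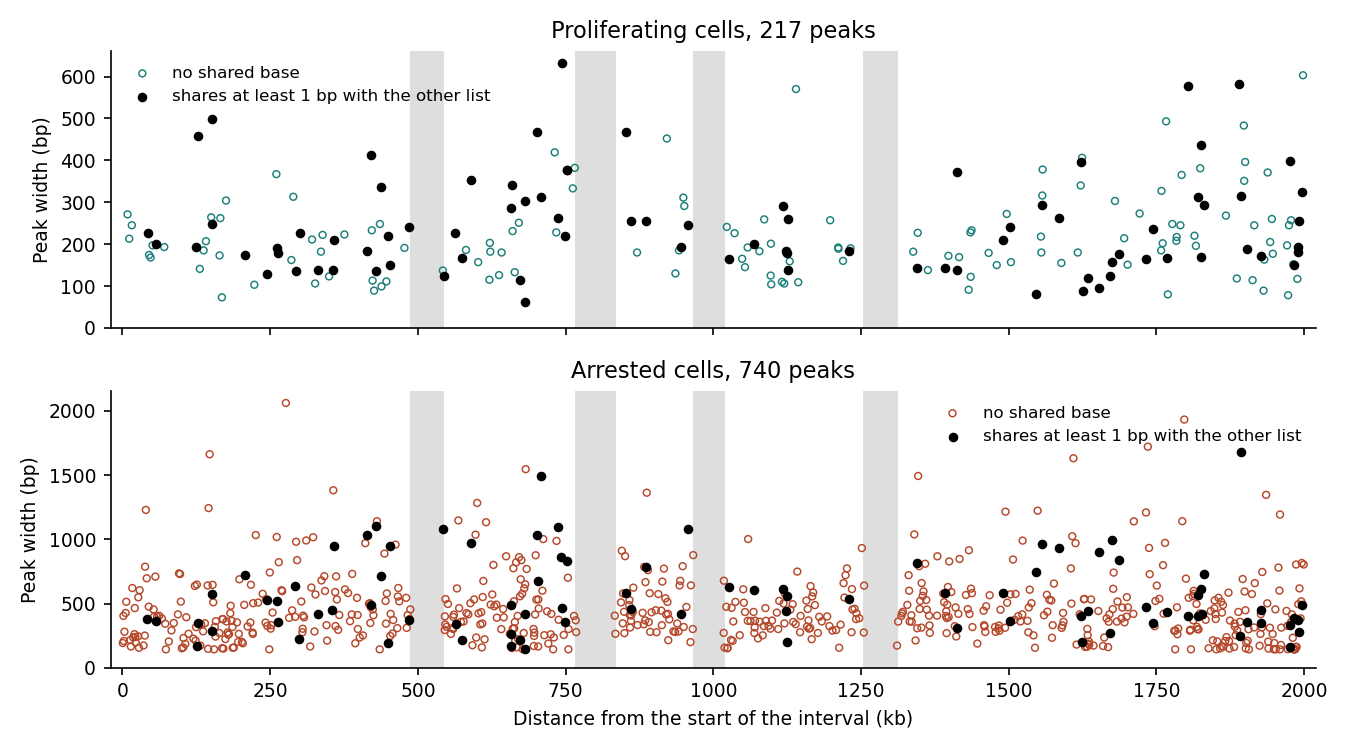
Every member by its distance from the start of the interval (x axis, kb) and its width (y axis, bp), proliferating above and arrested below; filled points share at least 1 bp with the other list and grey bands are the 4 stretches of at least 50 kb without a peak in either list. Shared sites (85 proliferating, 87 arrested) are found in each of the 5 blocks between the bands.

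Spacing was tight in both lists. From the end of a peak to the start of the next the median was 4462 bp in proliferating cells (quartiles 1538 and 10603), against 16424 bp in the rest of chromosome 4, and 1145 bp in arrested cells (quartiles 445 and 2696), against 2374 bp. Arrested members lay in groups. Under 500 bp separated 205 of the 739 neighbouring pairs (27.7%), against 11.8% elsewhere. Joining arrested peaks within 1000 bp left 399 groups, of which the largest held 11 peaks between 146389115 and 146399964, and 69.7% of members had such a neighbour, against 42.8% in the rest. Counted as groups, the arrested interval was no denser than the rest of the chromosome, with a ratio of 1.01, while 186 proliferating groups gave 2.43.

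The interval was broken by 4 stretches without a peak in either list, of 50705 to 65028 bp. They ran from 145487583 to 145542182, from 145768179 to 145833206, from 145966788 to 146017492 and from 146255799 to 146310889. Together they took up 225 kb (11.3% of the interval), and the next longest measured 12313 bp. The rest of chromosome 4 had 25 stretches of at least 50 kb, or 1.66 per 10 Mb against 20 per 10 Mb here. Whether they are gaps in the assembly or sequence to which reads could not be assigned was not tested.

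The 5 blocks between these stretches were alike in kind and differed in degree. Arrested peaks covered from 15.1% of the fourth block (146017493 to 146255798) to 24.6% of the second (145542183 to 145768178), and their median width lay between 386 and 435 bp in all 5. Their median score lay between 30.7 and 45.6. Proliferating density ran from 82.3 per Mb in the third block (145833207 to 145966787), from 11 peaks, to 137 per Mb in the second, from 31 peaks. The second block also had the largest share of proliferating peaks shared, 16 of 31 (51.6%), and the fourth the smallest, 8 of 29 (27.6%). Of the 38 very wide arrested peaks, 14 lay among the 285 arrested members of the fifth block (146310890 to 147000000). The first block had 11 of 198 and the second 10 of 112. The third had 2 of 60 and the fourth 1 of 85.

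Across the 20 stretches of 100 kb, arrested members numbered between 19 and 58 with a median of 34, and proliferating members between 4 and 24 with a median of 11. The stretch with most peaks was the last in both lists, from 146900001 to 147000000, with 58 and 24. The next in arrested cells were from 145600001 to 145700000, with 55, and from 146800001 to 146900000, with 54. In proliferating cells they were from 146700001 to 146800000, with 15, and from 145400001 to 145500000, with 14, a number that 2 other stretches also had. The fewest arrested peaks, 19, were found from 146200001 to 146300000, a stretch that contains part of a peak-free stretch, followed by 26 from 146700001 and 27 from 145500001. The fewest proliferating peaks, 4, were found from 145800001 to 145900000, followed by 5 from 146200001 and 6 from 145500001 and from 146300001. Counts of the lists went together across the 20 stretches (Pearson r 0.62, Spearman rho 0.47), which share the same peak-free sequence.

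Averaged over 100 to 200 kb, arrested covered length changed across the interval's start and was similar across its end. It was 22.3 kb in the last 100 kb inside and 20.6 kb in the first 100 kb beyond. Peak number, median width and median score did differ between those stretches. They were 58, 320 bp and 74.9 inside and 34, 452 bp and 36.0 beyond. In the 200 kb before the interval, arrested peaks covered 5.24%, with a median width of 162 bp and a median score of 97.5. The same 200 kb held 5 proliferating peaks. The first 100 kb inside had 42 arrested peaks with a median width of 382 bp, and 9 proliferating peaks. In steps of 20 kb the change was uneven. The last step before the start had a median arrested width of 307 bp and 1495 bp covered, the first inside had 259 bp and 3268 bp, and covered length fell back to 1481 bp from 145060001 and to 1451 bp from 145100001. Proliferating median width was similar on both sides of the start, at 206 bp in the 200 kb before, from 5 peaks, and 201 bp in the first 100 kb inside. Past the end, from 147000001 to 147200000, arrested peaks still covered 17.4%, with a median width of 419 bp and a median score of 43.7, and 7 of the 69 measured at least 1000 bp. The same 200 kb held 30 proliferating peaks, 150 per Mb, of which 7 were shared. In the 200 kb after that the values were 6.84%, 165 bp and 85.7, with 6 proliferating peaks. The crowded stretch thus continued for about 200 kb beyond the limit used here, which places 7 more very wide arrested peaks beside the 38 and leaves 8 elsewhere on chromosome 4.

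**Figure D5:**
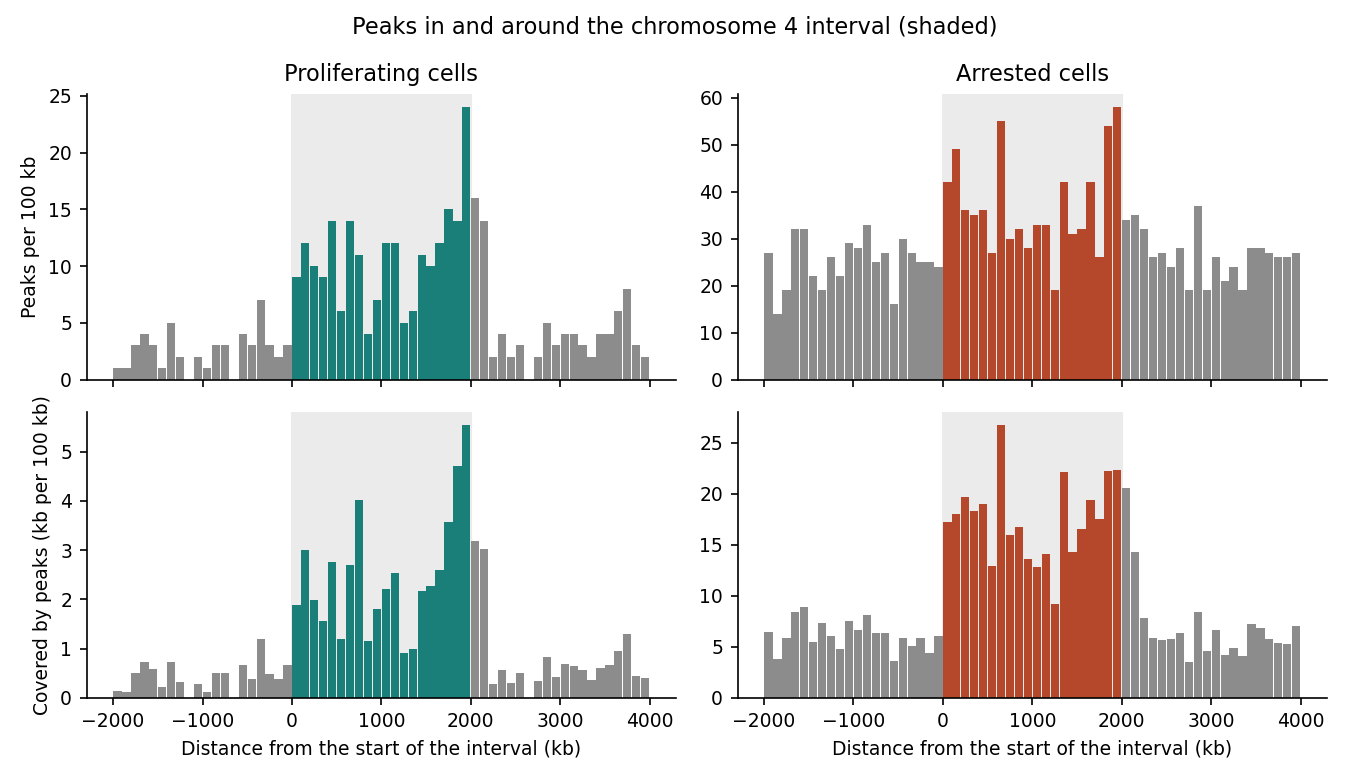
Peaks (upper panels) and covered length (lower panels, kb) in 100 kb bins (y axes) by distance from the start of the interval (x axis, kb), with the interval shaded and coloured and 2 Mb shown on each side. Arrested coverage lies between 9.15 and 26.7 kb in each bin of the interval and between 3.62 and 8.86 kb in the 2 Mb before it, and the 2 bins past the end lie within the range of those inside.

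At the edges, the last arrested peak before the interval was 179 bp wide with a score of 172.72 (144998618 to 144998796), and the first inside was 193 bp wide with a score of 32.57 (145000574 to 145000766). The last arrested peak inside was 804 bp wide with a score of 20.74 (146999185 to 146999988), and the first beyond was 1397 bp wide with a score of 28.27 (147002374 to 147003770). In proliferating cells the nearest peaks outside were 286 bp (144998578 to 144998863, score 34.42) and 258 bp wide (147012149 to 147012406, score 21.61). Those just inside were 271 bp (145008535 to 145008805, score 32.88) and 603 bp wide (146998013 to 146998615, score 41.83).

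The highest-scoring proliferating member was a 499 bp peak from 145150671 to 145151169 with a score of 74.94, rank 103 in the whole list, and it overlapped an arrested peak with a score of 28.98. The next were a 452 bp peak at 145921306 (63.71) and a 398 bp peak at 146975741 (53.81), the latter overlapping 2 arrested peaks. The last 2 of the top 5, at 145670878 (251 bp, 52.06) and 146139876 (570 bp, 47.30), overlapped none. Of all proliferating members 39.2% were shared. All 5 were wider than the interval's median of 200 bp. The widest proliferating member, 633 bp from 145743229 to 145743861, scored 31.26 and overlapped 2 arrested peaks. It was followed by peaks of 603, 581, 578 and 570 bp at 146998013, 146890148, 146802765 and 146139876, of which those of 581 and 578 bp were shared.

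The highest-scoring arrested member was a 251 bp peak from 145037776 to 145038026 with a score of 473.90, rank 1983 in the whole list. The next were a 150 bp peak at 146873452 (401.32), a 162 bp peak at 146881355 (369.28), a 689 bp peak at 145673947 (312.25) and a narrower peak from 146984990 to 146985134 (306.65). None of these 5 overlapped a proliferating peak, and only 11.8% of all arrested members did. Of the 5, 4 were narrower than the interval's first quartile of 294 bp. The widest arrested member ran over 2061 bp from 145276514 to 145278574 and scored 36.89. The next 4, of 1932, 1721, 1681 and 1662 bp, started at 146797069, 146735391, 146893432 and 145147527, with scores of 23.30, 107.03, 54.71 and 55.14. Of these 5, only the 1681 bp peak overlapped a proliferating peak, beside 8 of all 38 members of at least 1000 bp (21.1%).

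Shared sites were ordered by the worse of their 2 ranks among members, so the first need not lead either list. The first lay at 145749570 to 145749789 in proliferating cells, where it scored 30.37 (rank 52 of 217). Its arrested partner, 145749549 to 145749906, contained it whole and scored 121.40, rank 47 of 740. The next 4 pairs began, in proliferating cells, at 145437052, 146991095, 146829648 and 146975741, with scores of 36.45, 28.85, 29.47 and 53.81. Their arrested partners scored 111.50, 166.38, 98.31 and 97.60. High scores follow from choosing the pairs by rank. Over all shared arrested members the median score was 41.4, against 40.0 for the others. The ranks are those among members, and the 2 lists differ in length.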

How the data were processed

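Peak lists of 2 immunoprecipitated libraries were used; 2 inputs were not analysed here. The submitters' processing notes name mm9 as the build and bedtools, HOMER, MACS2 and Bowtie2 as tools, without versions or settings. Each deposited file has 5 columns without a header, and the last is the authors' score, whose scale is not stated. The lists hold no read counts, so depth is unknown.

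Members were peaks on chromosome 4 with a file start from 145000000 to below 147000000; positions are printed 1-based. The rest of the chromosome ran from the first to the last peak of either list. Windows of 2 Mb and bins of 100 kb were aligned to the interval. Shares have 95% Wilson intervals and medians order-statistic intervals; exact conditional intervals of density ratios served only to sort the alternatives. A share of 0 is given with the limit of 3 counts. The upper 50% of a list means scores at or above its median, which ties raise to 54.5% of the arrested list. With 1 library per state no p-value is given. No mm9 annotation or sequence was used.

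Named peaks were the 5 highest-scoring and 5 widest members per list, the peaks beside each edge, and the 5 overlapping pairs whose worse rank was best; 100 kb stretches were the fullest and emptiest. Members, rules and alternatives were chosen with earlier results of these data known. Python 3.11.15, numpy 2.4.6, pandas 2.3.3, SciPy 1.17.1 and matplotlib 3.10.9 were used, and the interval code was tested on simulated lists.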

Additional observations from a re-analysis of the deposited data

How the results depend on the processing

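No replicate could be left out, and no paired analysis was possible because each growth state had 1 library. Of 72 alternative values, 48 fell inside the 95% interval of the value in the report, or for counts and covered length differed from it by no more than 1.5 times; 20 moved further and 4 changed direction. Keeping the upper 50% of each list by score left 111 proliferating and 89 arrested members. The 4 changes of direction against the rest of chromosome 4 included the arrested density ratio (0.311), arrested coverage (2.10% against 2.76%) and arrested spacing (6663 bp against 4404 bp). The last was proliferating sharing (4.50%, interval 1.94 to 10.1, against 4.85%). Its outside value lay within the interval of the share, so a change of direction cannot be told from no difference. The same limit moved proliferating coverage to 1.33% (0.338% outside) and proliferating spacing to 9318 bp (31070 bp outside). It moved arrested width to 317 bp (158 bp outside) and arrested sharing to 5.62% (0.700% outside). Merging within 1000 bp left 399 arrested groups and a density ratio of 1.01. Without peak-free stretches the arrested density ratio was 1.57. Requiring 50% of the peak gave proliferating and arrested shares of 29.0% (6.51% outside) and 2.30% (0.542% outside). The centre inside the other peak, added after seeing the data, gave 29.0% (6.47% outside) and 4.32% (0.664% outside). Spacing was 5708 bp for proliferating peaks in the first 1 Mb and 1636 bp between arrested centres. Peaks under 200 bp had median scores of 23.6 in proliferating and 73.4 in arrested cells. At least 500 bp were measured in 5 proliferating and 256 arrested members, and at least 2000 bp in 1 arrested member. With no read counts, depth could not be set equal between lists.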
